A study of Mus musculus with 15 samples.

Results

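Interferon-stimulated genes are the genes that cells switch on after an interferon binds its receptor. Described here are 38 of them, taken by name from a list: 16 antiviral effectors, 5 sensors of foreign nucleic acid, 10 regulators, and 7 membrane, secreted or other genes. They are 38 of the 21788 gene symbols listed in at least 1 of the study's 4 tables of expression values. All 38 were listed in the 9 libraries of sorted cells. The 2 bulk libraries listed 35, without Mx2, Oas2 and Irf9, the 4 antibody libraries listed 35, without Mx2, Rsad2 and Ifitm3, and 33 were listed in all 15 libraries.

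The study sequenced RNA of CD8+ T cells that had entered E.G7 tumours, which grow from a mouse lymphoma line that makes ovalbumin. Tumours were started by injecting these cells under the skin of female mice aged 6 to 8 weeks, labelled C57BL/6, and cells were collected on day 21, at an age of 9 to 11 weeks. The bulk pair holds ovalbumin-specific CD8+ cells of wild-type mice and of mice labelled B7S1 KO, 6 mice per group and 1 library each. B7S1, the product of Vtcn1, is an inhibitory ligand of the B7 family. The sorted libraries hold PD-1+ CD8+ cells of 3 kinds: B7S1R_SP (Tim-3-, B7S1R+), TIM-3_SP (Tim-3+, B7S1R-) and DN (negative for both). Tim-3 and PD-1 are inhibitory receptors, and B7S1R is the label for binding of B7S1, whose stain is not given in the sources used here. Each kind has 1 library in each of 3 sets: wild type 1, wild type 2, and the set labelled KO. The antibody libraries are titled Control, anti_B7S1, anti_PD1 and combo, 1 library each, with no dose or schedule in the labels. No label says that libraries of a group came from separate animals, so p-values measure only the spread between these libraries.

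Type I interferons signal through the receptor IFNAR and the kinases JAK1 and TYK2 to a complex that holds STAT2 and IRF9. That complex binds the interferon-stimulated response element, a DNA motif in front of many of these genes. Type II interferon, which activated CD8+ T cells make themselves from Ifng, has a receptor of its own and acts on genes that carry the gamma-activated sequence. In T cells of chronic infections and tumours, interferon-stimulated genes are known as a programme that can accompany both activation and loss of function.

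The first motif can be read in the promoters of the best-known members. Of the 38 genes, 27 matched a promoter in the RefSeq table (build GRCm38.p6). In the 250 bases before the start site, 10 of these 27 (37.0%) held the core of that motif (GAAA, any 2 bases, GAAA, on either strand), against 936 of 27025 genes (3.46%). It stood more than once in 5 members, against 57 of the 27025 genes (0.211%). The gamma-activated sequence (TTC, any 3 bases, GAA, which reads the same on both strands) stood in 5 of 27 (18.5%) against 2197 genes (8.13%). Matches were counted on both strands and may overlap. The 4 stretches below lie upstream of the start site and run 5′ to 3′ on the gene's strand, with the first motif in capitals. The first 3 belong to effectors whose values are followed below. Ifitm3 is shown because its values stood apart from theirs, and its 250 bases held no match.
Ifit1, chr19:34640751-34640870, plus strand: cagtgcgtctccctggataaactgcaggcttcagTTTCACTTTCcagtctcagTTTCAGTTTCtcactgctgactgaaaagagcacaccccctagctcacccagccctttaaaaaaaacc
Ifit3, chr19:34583317-34583436, plus strand: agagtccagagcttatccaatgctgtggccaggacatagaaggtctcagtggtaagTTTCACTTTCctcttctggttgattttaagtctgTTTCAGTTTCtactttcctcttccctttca
Isg15, chr4:156200819-156200938, minus strand: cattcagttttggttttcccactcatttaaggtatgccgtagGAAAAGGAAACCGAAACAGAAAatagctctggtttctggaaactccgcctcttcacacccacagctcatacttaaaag
Ifitm3, chr7:141010771-141010890, minus strand: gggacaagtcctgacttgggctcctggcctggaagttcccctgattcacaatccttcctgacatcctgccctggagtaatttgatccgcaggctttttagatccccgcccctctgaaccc
In Isg15 the capitals are 3 overlapping matches, and in Ifit1 and Ifit3 they are 2 separate ones. A match describes these letters and is not a measured binding site.

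The labels were checked first. Vtcn1, the gene named as deleted, was listed at 0 in the 3 wild type 2 libraries and at 0.16 (B7S1R_SP), 2.50 (TIM-3_SP) and 1.02 FPKM (DN) in the set labelled KO, and at 0.0687 in the wild-type and 9.46 RPKM in the KO-labelled bulk library. Vtcn1 was not listed in wild type 1. These values do not show the loss of Vtcn1 RNA that the labels would give. A level of RNA per gene does not decide whether the gene is intact in these mice, so these are called the libraries labelled KO throughout. Havcr2, which encodes Tim-3, stood at 157, 81.8 and 27.4 FPKM in the TIM-3_SP libraries and at 9.34 or less in the other sorted ones, and at 0.19 FPKM in Control against 174 to 213 in the other antibody libraries. The 8 CD8 T cell markers listed (Cd3e, Cd8a and others) were above 0 in every library. Summed macrophage and monocyte markers (9 genes) ranged from 8.48 to 320 FPKM in 8 sorted libraries and reached 3200 in B7S1R_SP of the set labelled KO. Globin and haem-synthesis genes summed to between 8626 and 69637 FPKM in the wild type 2 set and to at most 106 in the set labelled KO. FPKM and RPKM divide fragments or reads by transcript length and by library size, so levels can be set side by side between genes, but the files give no read counts and the depth is unknown.

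Across the 9 sorted libraries the members covered the whole range from not detected to among the highest genes. Ly6e, a membrane protein of the Ly6 family, was between 577 and 1653 FPKM, and Ifi27l2a, a small, hydrophobic interferon-induced protein, was between 218 and 997 FPKM. In 8 of the 9 libraries these were the 2 highest members, holding 57.6% to 80.7% of the summed FPKM of the list. The exception was B7S1R_SP of the set labelled KO, where Ifitm3 was highest. Zbp1, a sensor of Z-form nucleic acid, was between 39.7 and 161 FPKM. Bst2, which tethers budding virus to the cell surface, was between 29.9 and 157, and Ifi35, an interferon-induced regulator, between 43.4 and 127. Isg20, an exonuclease for RNA, was between 32.9 and 90.2, and Xaf1, which opposes inhibitors of apoptosis, between 15.3 and 76.8 FPKM. These 7 genes were above 10 FPKM in every sorted library.

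Many classical effectors were low in the same cells. Oasl1, a regulator of Irf7 translation, never passed 0.46 FPKM, and Ifi44, whose role is little known, passed 1 FPKM in 1 library only, DN of wild type 1 with 1.66. Oas2, which makes the signal that activates RNase L, had a mean of 0.429 FPKM over the 9 libraries. Rsad2 (viperin, which makes a chain-ending nucleotide) had a mean of 0.832 and Ifit2, which binds viral RNA, of 0.851. These 5 members fell under the mean of 1 FPKM required for a test. Cmpk2, a mitochondrial nucleotide kinase next to Rsad2, was just above it with 1.04. The other 33 members entered the tests.

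**Figure D1:**
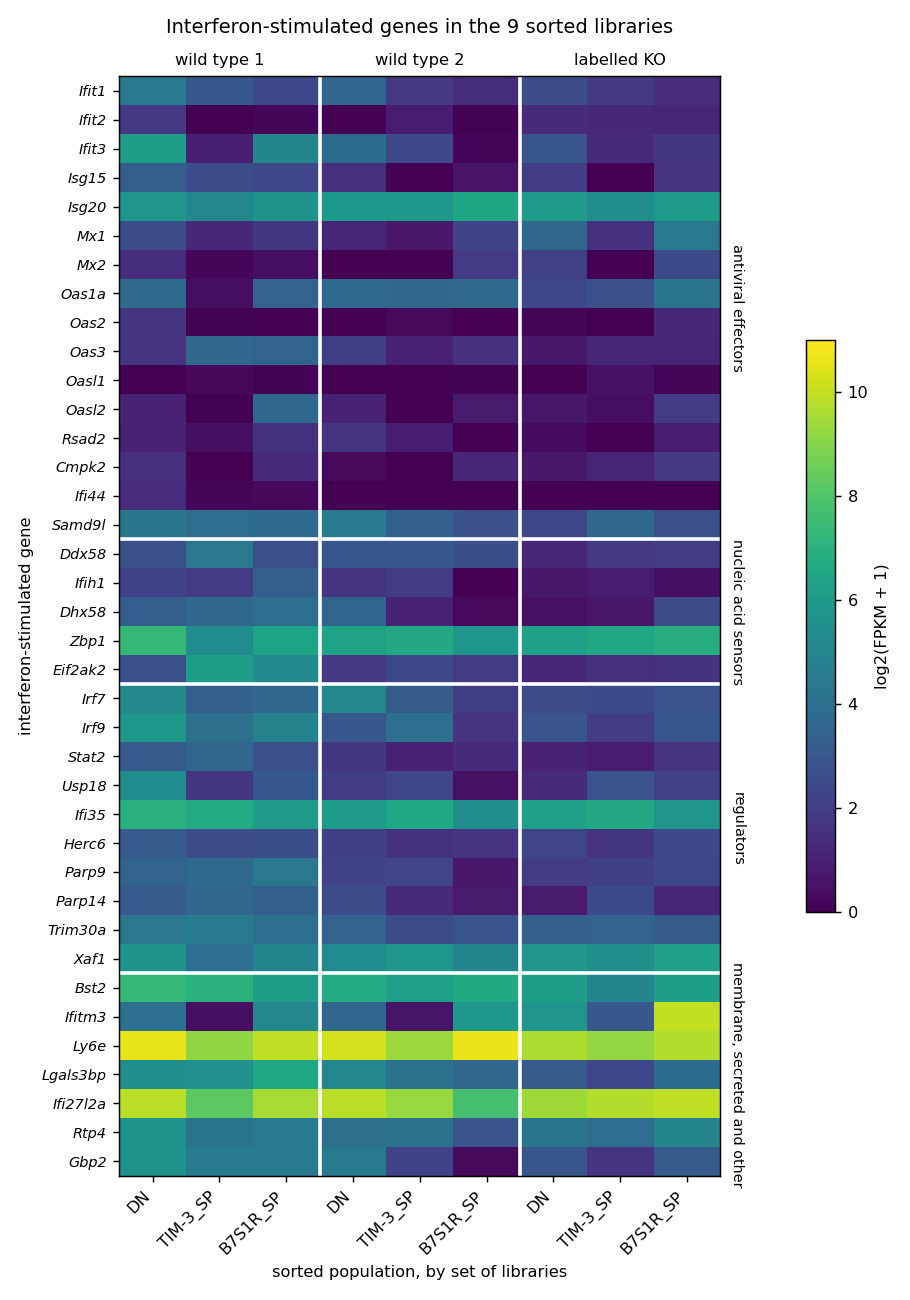
Levels of the 38 interferon-stimulated genes (rows, ordered by role) in the 9 sorted libraries (columns, in 3 sets of 3 populations), as log2(FPKM + 1) on the colour scale. Ly6e and Ifi27l2a are bright in every column, Oasl1, Ifi44 and Oas2 stay dark in nearly all, and Ifitm3 runs from 0.38 to 1030.2 FPKM.

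Ifitm3 was the 1 member that passed the threshold in any comparison between sorted populations. IFITM3 sits in endosomal membranes and hinders the entry of viruses, and it is made by many cell types including myeloid cells. Its gene lies on chromosome 7 from 141009586 to 141010770 on the minus strand (mm10). It was listed at 32.7, 53.5 and 1030.2 FPKM in B7S1R_SP of wild type 1, wild type 2 and the set labelled KO. In TIM-3_SP of the same sets it was listed at 0.38, 0.52 and 6.91 FPKM, and in DN at 15.4, 11.1 and 52.8. The order B7S1R_SP over DN over TIM-3_SP held in all 3 sets, and the B7S1R_SP and TIM-3_SP libraries did not overlap.

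On the log2(FPKM + 1) scale, Ifitm3 was 5.60 ± 0.61 (SE, 3 libraries against 3) higher in B7S1R_SP than in TIM-3_SP (limma, Benjamini-Hochberg adjusted p = 0.0102). Of the 10178 genes tested in that comparison, 42 passed the adjusted threshold of 0.05, which is 0.413%, with 25 higher (0.246%) and 17 lower (0.167%). Of the 33 members, 1 passed. With the 6 wild-type libraries alone and the replicate number as a block, the difference was 4.89 with an adjusted p of 0.0559 in limma. In limma the adjusted p was 0.0583 with a pseudocount of 0.1 in place of 1, 0.0785 without the filter on low values and 0.257 in the wild-type libraries without a block. The call was also lost, at adjusted p values between 0.0562 and 0.0690, when any of 3 libraries was left out: TIM-3_SP of wild type 2, DN of wild type 2, or TIM-3_SP labelled KO.

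Without the B7S1R_SP library labelled KO, where Ifitm3 and the macrophage markers were both highest, the difference in Ifitm3 was 4.80 (limma, adjusted p = 0.0354). The macrophage and monocyte markers summed to 176, 320 and 3200 FPKM in B7S1R_SP of the 3 sets, to 77.4, 36.4 and 12.4 in TIM-3_SP, and to 83.1, 110 and 8.48 in DN. In TIM-3_SP, 2, 4 and 5 of these 9 markers were at 0, in DN 2, 3 and 4, and in B7S1R_SP none. Cd68 made up much of the sums outside B7S1R_SP, at 62.4, 17.85 and 6.91 FPKM in TIM-3_SP and 79.8, 88.3 and 7.10 in DN. In B7S1R_SP it stood at 23.0, 31.35 and 113. Lyz2 stood at 97.7, 122 and 2440 FPKM in B7S1R_SP, 0.76, 15.4 and 5.32 in TIM-3_SP and 0.21, 16.35 and 0.70 in DN. Adgre1, which encodes the macrophage marker F4/80, was at 0 in all 3 TIM-3_SP libraries and at 0.05, 0.09 and 16.0 FPKM in B7S1R_SP. The dendritic cell markers (8 genes) summed to 2146, 172 and 2616 FPKM in B7S1R_SP, to 84.9, 65.5 and 105 in TIM-3_SP, and to 479, 188 and 90.4 in DN. Nearly all of that sum came from 4 genes of antigen presentation that other cells share (H2-Aa, H2-Ab1, H2-Eb1 and Cd74), with 2128, 171 and 2615 FPKM in B7S1R_SP. The 4 genes more particular to dendritic cells (Zbtb46, Xcr1, Clec9a and Itgax) summed to 18.0, 0.30 and 0.99 FPKM in B7S1R_SP, below the 21.6, 5.45 and 1.76 in TIM-3_SP of the same sets. The 8 CD8 T cell markers summed to 4548, 2361 and 2144 FPKM in B7S1R_SP, to 6943, 8893 and 6611 in TIM-3_SP, and to 7578, 6046 and 3449 in DN. All 8 had lower fitted levels in B7S1R_SP than in TIM-3_SP, by differences from -0.84 to -2.05 (Cd8a), and none passed the threshold (limma, smallest adjusted p = 0.139). Over the 9 libraries Ifitm3 followed the macrophage sum with Pearson's r = 0.63 and Spearman's rho = 0.57 on the log2 scale. Of the 33 members none had a higher r, while 4 had a higher rho, led by Oas1a with 0.77. Without the 2 libraries farthest from the median of the marker sum, r was 0.60 over 7 libraries, and 3 members were above it, led by Ly6e with 0.73. The points share tables, and those of 1 population are alike, so r is given as a description. In DN of the set labelled KO, Ifitm3 stood at 52.8 FPKM with a marker sum of 8.48, the lowest of the 9. The part of other cells in the difference was not tested, and in sorted populations a larger number of cells of a type cannot be told apart from more RNA per cell.

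**Figure D2:**
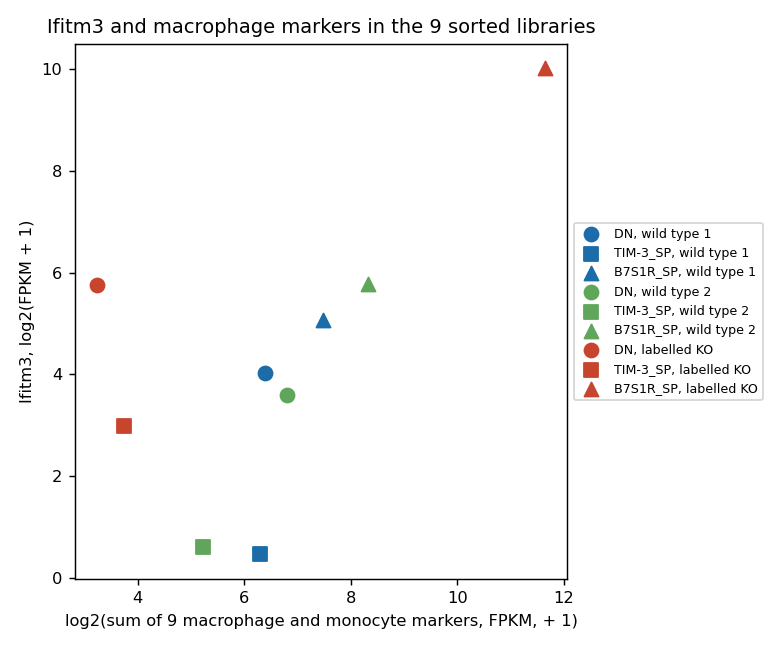
Ifitm3 (y axis) against the sum of 9 macrophage and monocyte markers (x axis), both on the log2 scale of FPKM + 1, with 1 point for each of the 9 sorted libraries, coloured by set and shaped by population. B7S1R_SP of the set labelled KO lies at the upper right with 1030.2 FPKM of Ifitm3, and DN of the same set combines the lowest marker sum, 8.48, with 52.8 FPKM.

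The other members that stood higher in B7S1R_SP than in TIM-3_SP did not pass the adjusted threshold. Oasl2, a ubiquitin-like relative of the OAS enzymes, was listed at 12.3, 0.75 and 2.72 FPKM in B7S1R_SP of wild type 1, wild type 2 and the set labelled KO, and at 0.06, 0 and 0.33 in TIM-3_SP. Mx1, of the dynamin-like GTPase family, was listed at 2.48, 3.65 and 21.1 FPKM in B7S1R_SP and at 1.34, 0.69 and 2.01 in TIM-3_SP. Both genes were higher in B7S1R_SP in every set, without overlap. The differences were 1.98 ± 0.61 for Oasl2 and 1.64 ± 0.56 for Mx1 (limma, adjusted p = 0.197 and 0.226, SE over 3 libraries against 3).

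In every one of the 3 sets, 9 members were higher in B7S1R_SP than in TIM-3_SP, against 24.7% of genes, and 4 were lower, against 13.9%. For 6 members every B7S1R_SP library lay above every TIM-3_SP library (Mx1, Mx2, Oasl2, Cmpk2, Ifitm3 and Ly6e), against 9.02% of the genes tested, and for 1 every one lay below (Ifi35), against 4.44%. Mx1 and Mx2 are neighbouring, similar genes on chromosome 16, Mx2 is annotated as a polymorphic pseudogene, and the files do not say how shared reads were split. Ifi35 was listed at 65.3, 43.4 and 52.3 FPKM in B7S1R_SP and at 104, 95.4 and 98.2 in TIM-3_SP, a difference of -0.89 ± 0.41 (limma, adjusted p = 0.352). Parp14, an ADP-ribosyltransferase, and Ddx58, which encodes the RNA sensor RIG-I, had the next lowest differences, -0.70 ± 0.58 and -0.63 ± 0.49 (limma, adjusted p = 0.640 and 0.613). The first was -0.20 without TIM-3_SP labelled KO and -1.12 without TIM-3_SP of wild type 2, and the second -0.16 without TIM-3_SP of wild type 1 and -0.98 without B7S1R_SP labelled KO. Over the 33 members 20 were higher and 13 lower (39.4%), near the 40.4% of all genes. Their median difference was 0.15 beside 0.18 over all genes tested. That median ranged from -0.22, without B7S1R_SP labelled KO, to 0.49, without B7S1R_SP of wild type 2. By role, in the fit over the 3 sets, 9 of 11 effectors and 6 of 7 membrane, secreted and other genes were higher, while 7 of 10 regulators and 3 of 5 sensors were lower.

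Against DN, the TIM-3_SP libraries held less of most members, and no single member passed the threshold. Of 33 members, 26 were lower and 7 higher, where 59.7% of all genes tested were lower, and the median difference was -0.54 beside -0.14 over all genes. That median was -0.31 beside -0.23 without DN of wild type 1, -0.32 beside -0.18 without TIM-3_SP of wild type 1, and -0.81 beside -0.19 without DN labelled KO. None of the 33 passed an adjusted p of 0.05 in limma, where 6 of 10178 genes did (0.059%). At an unadjusted p under 0.05 there were 5 members, all lower (Ifitm3, Ifit3, Isg15, Ifit1 and Mx1), and 922 genes, which is 9.06%. In every one of the 3 sets, 11 members (33.3%) were lower in TIM-3_SP, against 19.7% of all genes, and 3 were higher, against 8.61%. All 7 membrane, secreted and other genes and 10 of 11 effectors were lower, with medians of -0.69 and -1.07.

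Ifit3, a partner of Ifit1 in binding viral RNA, was listed at 0.95, 4.42 and 1.51 FPKM in TIM-3_SP of wild type 1, wild type 2 and the set labelled KO. In DN it was listed at 68.4, 13.9 and 6.69, above TIM-3_SP in every set and without overlap. The difference was -2.74 ± 0.99 (limma, adjusted p = 0.467), and it ranged from -1.32 without TIM-3_SP of wild type 1 to -3.81 without TIM-3_SP of wild type 2. Ifitm3 differed by -3.11 ± 0.61 between the same populations (limma, adjusted p = 0.195). Oasl2 and Ly6e also lay below DN without overlap, so these were 4 members against 7.97% of genes, and no member lay above DN in this way, against 2.25%.

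Isg15, a ubiquitin-like protein that is joined to others, was listed at 5.12, 0 and 0 FPKM in TIM-3_SP and at 9.11, 1.78 and 2.95 in DN. Gbp2, a guanylate-binding protein of the response to type II interferon, was listed at 23.1, 3.63 and 2.13 in TIM-3_SP and at 49.1, 21.7 and 6.77 in DN. Both were lower in TIM-3_SP in every set, and wild type 1 was the highest set for both genes in both populations. The differences were -1.39 ± 0.48 for Isg15 and -1.55 ± 0.76 for Gbp2 (limma, adjusted p = 0.444 and 0.594). Without DN of wild type 2 that of Gbp2 was -0.75.

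The sensors went the other way in part. Eif2ak2, which encodes the kinase PKR that stops translation on double-stranded RNA, was listed at 68.7, 4.45 and 1.84 FPKM in TIM-3_SP and at 5.42, 2.63 and 1.38 in DN. Ddx58 was listed at 19.5, 7.11 and 2.64 in TIM-3_SP and at 5.72, 7.02 and 1.37 in DN. Both were higher in TIM-3_SP in each set, by most in wild type 1, and the ranges overlapped. The differences were 1.43 ± 0.64 and 0.75 ± 0.49 (limma, adjusted p = 0.553 and 0.717). Without DN of wild type 1 that of Eif2ak2 was 0.53, and without TIM-3_SP of wild type 1 it was 0.81 and that of Ddx58 0.28. Oas3, the third highest, was listed at 11.3, 1.02 and 1.30 FPKM in TIM-3_SP and at 2.16, 3.17 and 0.66 in DN. Its difference of 0.46 ± 0.58 (limma, adjusted p = 0.865) became -0.23 without DN of wild type 1 and 0.02 without TIM-3_SP of wild type 1.

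The lower level of the list in TIM-3_SP was not the same in each set. The median difference was -1.0 in wild type 1, -0.57 in wild type 2 and -0.19 in the set labelled KO, beside -0.00, -0.34 and -0.07 over all genes. With the second table alone, which holds the wild type 2 set and the set labelled KO, 19 members were lower and 12 higher, and their median of -0.29 stood beside -0.24 over all genes. Markers of plasmacytoid dendritic cells, known for making type I interferon, summed to 192, 2.69 and 46.9 FPKM in DN of the 3 sets. They summed to 16.0, 2.98 and 3.12 in TIM-3_SP and to 38.9, 8.47 and 13.8 in B7S1R_SP. In DN of wild type 1, 127 of the 192 FPKM came from Klk1 and 32.1 from Ly6d. Tcf4 stood at 1.29, 1.12 and 0.47 in DN and at 1.13, 0.27 and 0.95 in TIM-3_SP. Siglech stood at 14.4, 0.23 and 3.07 in DN, 1.67, 0.21 and 0.13 in TIM-3_SP and 11.8, 0.10 and 0.10 in B7S1R_SP. The part of such cells in the differences was not tested.

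**Figure D3:**
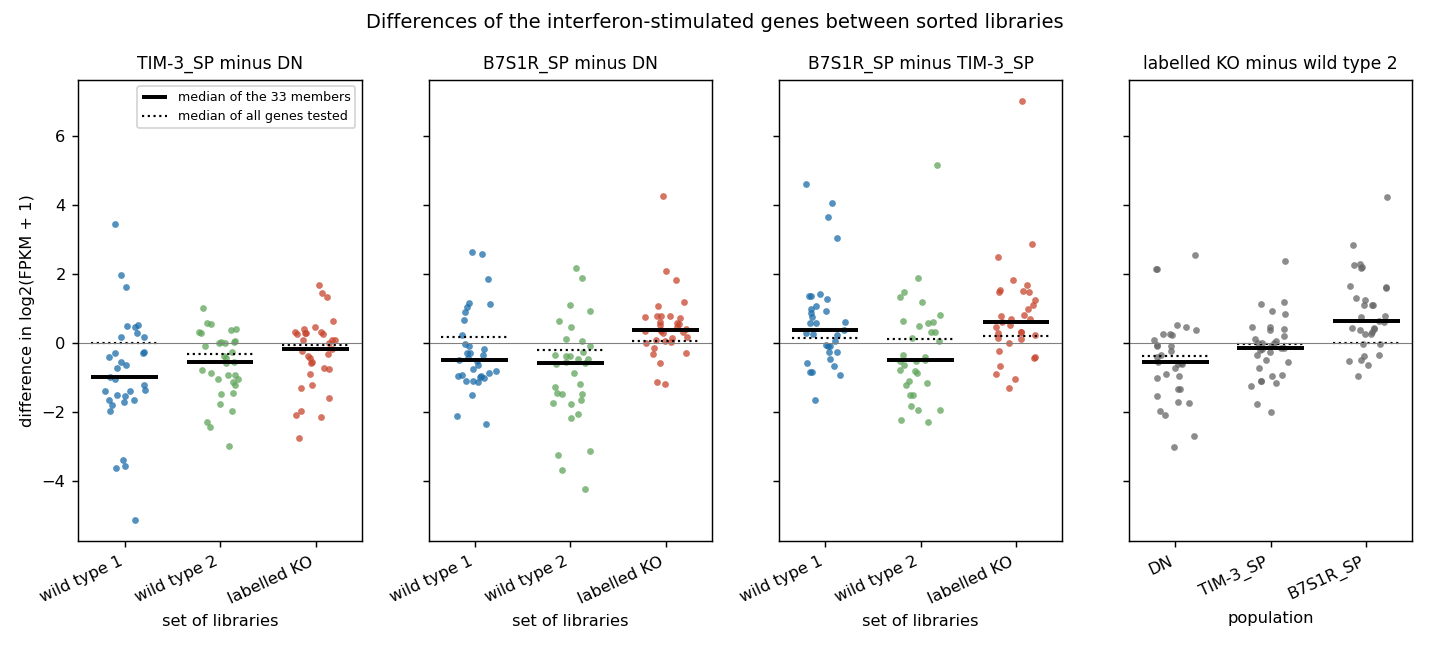
Differences of the 33 tested members in log2(FPKM + 1), 1 point per gene, within each set for the 3 population comparisons and within each population for the set labelled KO minus wild type 2. Thick lines are the medians of the members and dotted lines those of all genes tested: the members' median for B7S1R_SP minus DN is -0.49 and -0.58 in the wild-type sets and 0.36 in the set labelled KO.

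Between B7S1R_SP and DN, no member and no gene passed the adjusted threshold (0 of 33 and 0 of 10178, 0%, in limma). At an unadjusted p under 0.05 there were 678 genes (6.66%) and 4 members, of which Ifitm3 was higher and Ifit1, Gbp2 and Irf7 were lower. Of 33 members 22 were lower (66.7%), where 49.4% of all genes tested were, and 11 were higher. Their median was -0.26 beside 0.01 over all genes. In the fit over the 3 sets all 10 regulators had negative differences, from -0.07 to -1.45. Within the sets 8 of 10 were lower in wild type 1 and 10 of 10 in wild type 2, but 2 of 10 in the set labelled KO, where 8 were higher. Of all genes 43.3%, 57.7% and 43.2% were lower in these sets. In all 3 sets 5 members were lower, against 14% of genes, and 2 were higher, against 15.8%. Without B7S1R_SP of wild type 2 the members split into 17 higher and 16 lower, with a median of 0.01 beside 0.10. The median was -0.12 without DN of wild type 2 and -0.46 without B7S1R_SP labelled KO.

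Ifit1, which binds viral RNA caps, lies on chromosome 19 from 34640871 to 34650009 on the plus strand. It was listed at 4.42, 1.68 and 1.63 FPKM in B7S1R_SP of wild type 1, wild type 2 and the set labelled KO, and at 22.4, 11.2 and 5.02 in DN. TIM-3_SP stood between them in each set, at 7.17, 2.55 and 2.54. It was the 1 member whose B7S1R_SP libraries all lay below the DN libraries, against 3.16% of genes, and no member lay above them, against 3.75%. The difference was -1.83 ± 0.42 (limma, adjusted p = 0.640).

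Irf7, the factor that drives a second wave of type I interferon, was listed at 11.7, 3.11 and 6.00 FPKM in B7S1R_SP, at 9.47, 8.27 and 4.59 in TIM-3_SP, and at 35.4, 35.4 and 4.64 in DN. The 2 wild-type DN libraries were the highest, while DN labelled KO was level with TIM-3_SP labelled KO. Gbp2 was listed at 21.7, 0.21 and 7.70 FPKM in B7S1R_SP, below DN in both wild-type sets and above it in the set labelled KO. The differences between B7S1R_SP and DN were -1.45 ± 0.63 for Irf7 and -1.74 ± 0.76 for Gbp2 (limma, adjusted p = 0.742 for both). Ifit3, at 31.5, 0.15 and 2.47 FPKM in B7S1R_SP, differed by -1.98 ± 0.99 (limma, adjusted p = 0.753). Without B7S1R_SP of wild type 2 these values were -0.68 for Gbp2 and -0.80 for Ifit3, without DN of wild type 2 that of Gbp2 was -0.93, without B7S1R_SP labelled KO it was -2.63, and without B7S1R_SP of wild type 1 that of Ifit3 was -3.02.

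Ifitm3 was 2.49 ± 0.61 higher in B7S1R_SP than in DN (limma, adjusted p = 0.642). Oasl2, at 1.12, 1.09 and 0.65 FPKM in DN, was 1.19 ± 0.61 higher in B7S1R_SP (limma, adjusted p = 0.753). Eif2ak2, at 37.4, 2.89 and 2.04 FPKM in B7S1R_SP, was 1.01 ± 0.64 higher (limma, adjusted p = 0.775), and 0.12 higher without DN of wild type 1. For Oasl2 and Eif2ak2 the largest value in B7S1R_SP was that of wild type 1.

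**Figure D4:**
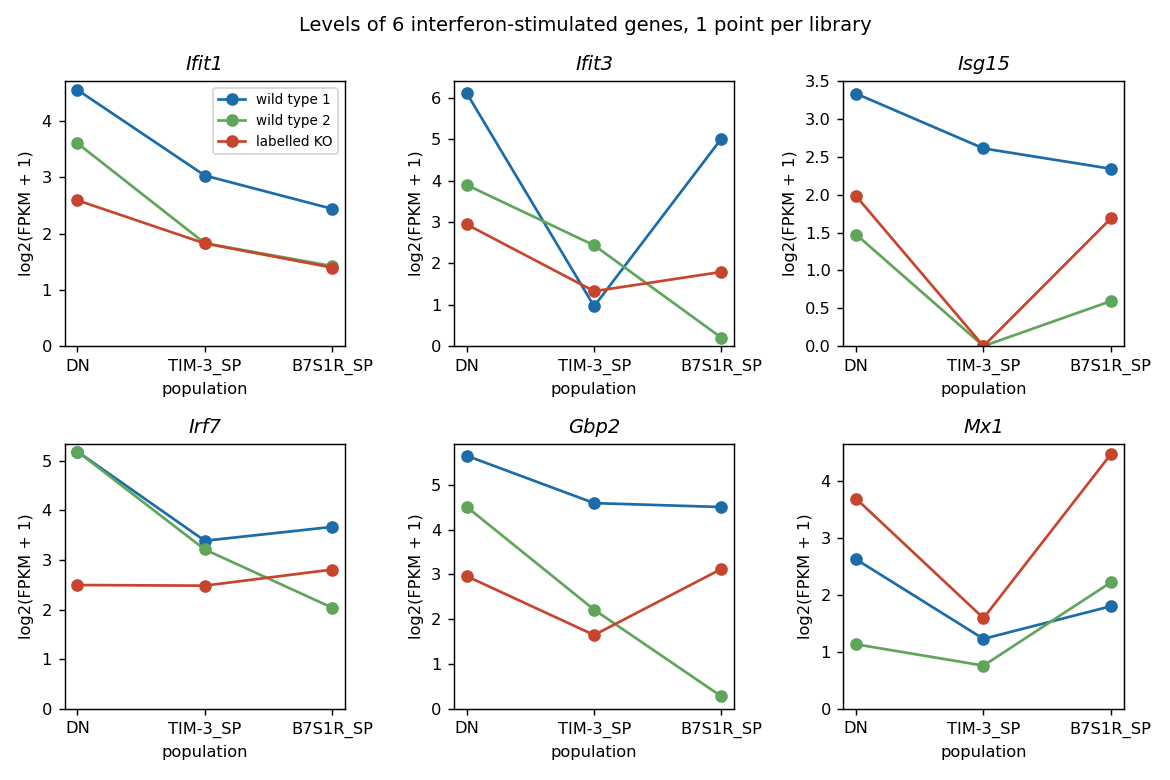
Levels of Ifit1, Ifit3, Isg15, Irf7, Gbp2 and Mx1 as log2(FPKM + 1) in the 3 sorted populations, with 1 line per set and 1 point per library. DN is the highest population for 5 of the genes in both wild-type sets, and Mx1 in the set labelled KO is highest in B7S1R_SP at 21.1 FPKM.

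The population with the highest level differed between the sets. In wild type 1, 21 of the 33 tested members (63.6%) were highest in DN, where 29.9% of all genes tested were. In wild type 2 it was 16 (48.5%) against 45.6%. In the set labelled KO it was 3 (9.09%) against 25.4%, and 23 members (69.7%) were highest in B7S1R_SP against 42.4%. Whether the difference between KO-labelled and wild-type libraries varied with the population was tested gene by gene. In limma's F test of that interaction, 0 of 33 members and 0 of 10178 genes passed (0%). At an unadjusted p under 0.05 there were 0 members and 96 genes (0.943%). The spread in that test came from the wild-type libraries alone, which lie in different tables, with 2 residual degrees of freedom. Each population labelled KO has 1 library, so the test cannot decide whether the difference varied with the population.

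The set labelled KO was compared with wild type 2, whose libraries list the same genes. This is 1 set against 1 set, so the KO label and the set cannot be told apart. The 3 populations stand in for replicates, and wild type 1 adds to the estimate of the spread only. The SE and p-values below therefore do not measure the spread between animals of a genotype. No member passed, and 1 gene of 10178 did (0.00983%, limma). At an unadjusted p under 0.05 there were 670 genes (6.58%) and 3 members, of which Ifitm3 and Mx1 were higher and Ddx58 lower. Of 33 members 16 were higher and 17 lower (51.5%), where 60.3% of all genes were lower. Their median was -0.05 beside -0.15 over all genes. The median ranged from -0.28, without either B7S1R_SP library of these 2 sets, to 0.41, without DN labelled KO. In all 3 populations 5 members were higher, against 13.8% of genes, and 5 were lower, against 23.4%. Within B7S1R_SP 25 were higher (75.8%), against 48.9% of all genes, and 8 lower, with a median of 0.62 beside 0.00. Within DN 10 were higher and 23 lower (69.7%), near the 63.2% of all genes, with a median of -0.57 beside -0.38. Within TIM-3_SP 12 were higher and 19 lower (57.6%), near the 52.4% of all genes, with a median of -0.14 beside -0.04.

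Mx1 was listed at 21.1, 2.01 and 11.9 FPKM in B7S1R_SP, TIM-3_SP and DN labelled KO, and at 3.65, 0.69 and 1.19 in wild type 2. It was higher in every population by 0.83 to 2.55, and the fitted difference was 1.88 ± 0.56 (limma, adjusted p = 0.755). Mx2 was listed at 4.62, 0 and 3.44 FPKM in the set labelled KO and at 2.72, 0 and 0 in wild type 2, a difference of 0.92 ± 0.62 (limma, adjusted p = 0.813) that was 0.27 without DN of wild type 2. Ifitm3 was higher in every population by 2.15 to 4.24, with a fitted difference of 2.92 ± 0.61 (limma, adjusted p = 0.557).

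Ddx58 was listed at 3.01, 2.64 and 1.37 FPKM in B7S1R_SP, TIM-3_SP and DN labelled KO and at 5.29, 7.11 and 7.02 in wild type 2. It was lower in every population, with a fitted difference of -1.19 ± 0.49 (limma, adjusted p = 0.755). Lgals3bp, a secreted binder of galectins, was listed at 13.7, 4.19 and 7.61 FPKM in the set labelled KO and at 11.4, 16.8 and 33.1 in wild type 2, a difference of -1.17 ± 0.57 (limma, adjusted p = 0.763). Irf7 differed by -0.88 ± 0.63 (limma, adjusted p = 0.830), with DN at 4.64 against 35.4 FPKM and B7S1R_SP at 6.00 against 3.11. That difference ranged from -0.13 without DN labelled KO to -1.55 without B7S1R_SP of wild type 2, and that of Lgals3bp from -0.66 without DN of wild type 2 to -1.87 without B7S1R_SP of wild type 2. The globin and macrophage sums given above differ between these sets, and their part in these values was not tested.

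The genes above and beside the members in the pathway were read from 2 further lists. Of 30 upstream and feedback genes 25 were tested, and of 59 further interferon-induced genes 53. In TIM-3_SP against DN, 16 of 25 upstream genes (64.0%) and 35 of 53 induced genes (66.0%) were lower, near the 59.7% of all genes, and none passed. In B7S1R_SP against DN, 17 of 25 (68.0%) and 38 of 53 (71.7%) were lower, where 49.4% of all genes were, and none passed. In B7S1R_SP against TIM-3_SP 16 of 25 (64.0%) and 29 of 53 (54.7%) were lower, where 40.4% of all genes were. There 1 upstream gene passed and was lower, and 1 induced gene passed and was higher, against 0.413% of all genes. In the set labelled KO against wild type 2, 22 of 25 upstream genes (88.0%) were lower, where 60.3% of all genes were, with a median of -0.63 beside -0.15, and none passed. Of the induced genes 30 of 53 (56.6%) were lower there and none passed. Ube2l6, the enzyme that carries ISG15 to its targets, Irf2, a repressor of these genes, and Socs1, which shuts off JAK signalling, had the smallest unadjusted p among them, with differences of -1.81, -1.74 and -2.11 (limma, adjusted p = 0.755 for each).

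The upstream gene that passed was Ifng, which encodes type II interferon. It was listed at 67.6, 40.0 and 17.1 FPKM in B7S1R_SP of wild type 1, wild type 2 and the set labelled KO, at 912, 1692 and 1077 in TIM-3_SP, and at 265, 373 and 99.99 in DN. The order TIM-3_SP over DN over B7S1R_SP held in every set. The difference between B7S1R_SP and TIM-3_SP was -5.00 ± 0.52 (limma, adjusted p = 0.00948). In the wild-type libraries alone with the replicate number as a block it was -4.55 with an adjusted p of 0.104 in limma, and the adjusted p was 0.0690 without TIM-3_SP of wild type 2, 0.0570 without B7S1R_SP labelled KO, 0.0533 without TIM-3_SP labelled KO, 0.0583 with a pseudocount of 0.1 and 0.0551 without the filter.

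The induced gene that passed was Ifitm2, a close relative of Ifitm3 in the same gene family. It was listed at 233, 1164 and 1614 FPKM in B7S1R_SP, at 6.94, 37.1 and 47.0 in TIM-3_SP, and at 29.8, 147 and 621 in DN. Its order of populations was that of Ifitm3 in every set. The difference between B7S1R_SP and TIM-3_SP was 4.96 ± 0.49 (limma, adjusted p = 0.00787). With the replicate block in the wild-type libraries alone it was 4.91 with an adjusted p of 0.0517 in limma, and the adjusted p was 0.0614 without TIM-3_SP of wild type 2, 0.0533 without TIM-3_SP labelled KO and 0.0583 with a pseudocount of 0.1.

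The members also varied in how far they moved together within a set. After the mean of each set was removed, the 528 pairs among the 33 members had a median correlation of 0.21 over the 9 libraries, and 24.6% of pairs were above 0.5. Herc6, the mouse ligase for ISG15, followed the mean of the other 32 members most closely with r = 0.83. Rtp4, an interferon-induced chaperone, followed with 0.81, Ifi27l2a with 0.80 and Irf7 with 0.77. Eif2ak2 (-0.58), Ddx58 (-0.42), Oas3 (-0.26) and Ifi35 (-0.19) ran against the rest. These are descriptions over 9 libraries, and the set means were removed because the sets differ in table and level. The same values were not computed over all genes, so they do not set the members apart from other genes.

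In the bulk pair the KO-labelled library held more of many members. Of the 35 members listed, 23 were at 5 RPKM or more in the higher library, and 17 of these were higher in the library labelled KO. The matching share of all genes was not computed. With a ratio of 2 or more on the scale of RPKM + 1, 9 were higher and 1 was lower. Among 6075 genes at that level 10.7% were higher, 12.1% lower and 22.9% either. The median log2 ratio of these 23 was 0.51 beside -0.02 over all those genes, and that of all 35 listed members was 0.34 beside -0.06. With 1 library per group there is no replicate check.

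Ifit1 was listed at 0.444 RPKM in wild type and 7.42 in the library labelled KO, a log2 ratio of 2.54. Oas3 was listed at 0.439 and 6.86, and Bst2 at 1.56 and 12.4, with log2 ratios of 2.45 and 2.38. Rtp4 was listed at 6.02 and 21.9, Ifi35 at 27.0 and 82.1, and Gbp2 at 5.14 and 14.7, with log2 ratios of 1.71, 1.57 and 1.36. Ddx58, Usp18 (which removes ISG15 from proteins) and Zbp1 completed the 9 with log2 ratios between 1.03 and 1.25. Of the 9, Ifit1, Oas3, Bst2, Ddx58 and Usp18 were under 5 RPKM in wild type. They reached that minimum through the library labelled KO alone. The gene lower in the library labelled KO was Ifitm3, at 3.46 against 10.3 RPKM, a log2 ratio of -1.34. Of these 10 members, 5 stood on the opposite side from the fitted difference of the sorted set labelled KO: Ifit1, Oas3, Bst2, Ddx58 and Ifitm3. Bst2 differed there by -0.78, Oas3 by -0.51 and Ifit1 by -0.35, and Ifit1, Bst2 and Ddx58 were lower in all 3 sorted populations labelled KO. The other 5 stood on the same side. Of them Ifi35 was higher in all 3 sorted populations, Usp18 and Rtp4 in 2, and Zbp1 and Gbp2 in 1. The matching share of all genes was not computed.

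Not all members shared the direction. Isg15 was listed at 5.72 and 6.70 RPKM and Ifi27l2a at 291 and 272, ratios within the fold. Ifit3, another effector with paired response elements above, was listed at 3.38 RPKM in wild type and 0.748 in the library labelled KO, under the minimum of 5. Ly6e, at 384 FPKM or more in each of the 13 other libraries, was listed at 0.0967 and 1.11 RPKM in the bulk pair, whose values come from another table. The summed macrophage markers (12 listed) were 78.4 and 85.6 RPKM in this pair.

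**Figure D5:**
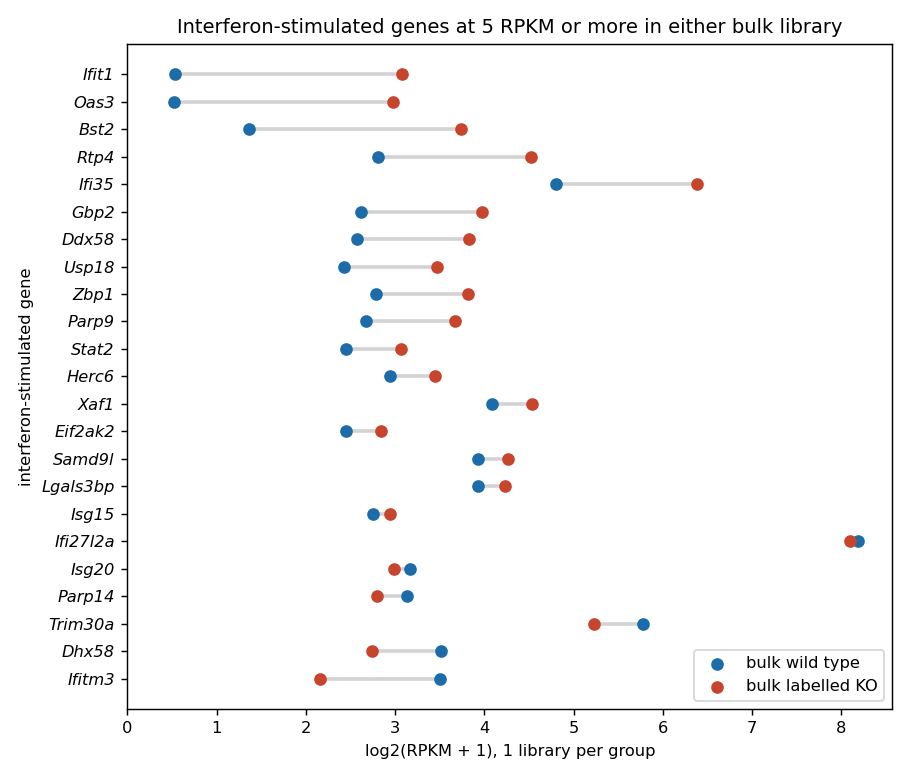
The 23 members at 5 RPKM or more in either bulk library, as log2(RPKM + 1), with blue for wild type and red for the library labelled KO, 1 library each. The genes are ordered by ratio from Ifit1 at the top (0.444 and 7.42 RPKM) to Ifitm3 at the bottom (10.3 and 3.46 RPKM), and 17 of the 23 lie farther right in red. The matching share of all genes was not computed.

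The antibody libraries differed from each other in most genes, and Control stood apart. In Control 15 of the 35 listed members were at 0 and 13 were at 1 FPKM or more, against 20 or 21 at 1 or more in each other library, and 42.4% of all its genes were at 0 against 15.3% to 32.8%. Of 607 genes at 100 FPKM or more in all 3 other antibody libraries, 12 were under 1 in Control. Listed zeros may therefore be failed estimates, and values are given per library. The 3 comparisons with Control share that library and are set side by side only.

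Members were counted at a ratio of 2 or more on the scale of FPKM + 1, among those at 5 FPKM or more in the higher library. In anti_B7S1, 15 of 22 members at that level were above Control, against 37.9% of 7083 genes. Below Control were 4, against 29% (66.9% in either direction). Of the 15, 7 were at 0 in Control. anti_PD1 held 11 of 19 above, against 43.8% of 7829 genes, and 3 below, against 23.8% (67.6% in either direction). Of these 11, 6 were at 0 in Control. combo held 11 of 20 above, against 40.1% of 7226 genes, and 5 below, against 28% (68% in either direction). Of these 11, 7 were at 0 in Control. The members at that level had median log2 ratios of 3.21, 1.72 and 3.07, beside 0.20, 0.49 and 0.27 over all genes at that level, and many passed the minimum through the treated library alone. Over all 35 listed members the medians were 0.45, 0.11 and 0.03, beside 0, 0.07 and 0 over all 14710 listed genes.

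Ifi27l2a was listed at 0.14 FPKM in Control, 333 in anti_B7S1, 116 in anti_PD1 and 10.1 in combo. Bst2 was listed at 1.19, 90.6, 28.1 and 48.6 in the same order, and Rtp4 at 0, 53.9, 0.11 and 20.8. Gbp2 was listed at 0, 0, 42.6 and 16.8, and Parp9, a partner of the ubiquitin ligase DTX3L, at 0, 9.40, 25.7 and 25.9. These genes were chosen for their large ratios over Control in anti_B7S1 or anti_PD1, so their low values in Control follow from that choice. The order of the other 3 libraries changed from gene to gene, and Gbp2 was at 0 in anti_B7S1 as well.

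Some members were highest in Control or high there, and Ifit3, Dhx58, Herc6 and Parp14 were chosen for their low ratios to Control. Ifit3 was listed at 22.6 FPKM in Control, 0 in anti_B7S1, 0.52 in anti_PD1 and 0.11 in combo, and Dhx58, the RNA sensor LGP2, at 20.5, 0, 22.4 and 0. Herc6 was listed at 19.3, 0, 3.01 and 23.3, and Parp14 at 21.3, 25.2, 0.56 and 1.14. Isg15 was listed at 0, 26.0, 4.84 and 45.1 and Irf7 at 9.97, 53.8, 9.71 and 0.06. Single members thus went from 0 to more than 20 FPKM between libraries in either direction, while Ly6e stayed between 384 and 653.

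In combo more members were past the fold below anti_B7S1 than above it, while all genes leaned slightly the other way. Relative to anti_PD1, members and all genes alike had more below than above. Against anti_B7S1, 6 of the 23 members at 5 FPKM or more were above, against 33.3% of 7546 genes. Below were 12, against 30.8% (64.1% in either direction). The median of these 23 was -1.33, beside 0.06 over all genes at that level. Over all 35 listed members that median was -0.26, beside 0 over all listed genes. Against anti_PD1, 7 of 22 were above, against 23.6% of 8000 genes, and 9 below, against 32.7% (56.3% in either direction). The median was -0.23 beside -0.15, and -0.03 beside -0.04 without the minimum. Both comparisons share the combo library. Trim30a, an interferon-induced inhibitor of NF-kB signalling, was listed at 11.6 FPKM in anti_B7S1, 18.8 in anti_PD1 and 0.01 in combo, and Stat2, the partner of IRF9, at 19.0, 13.5 and 0.46. Zbp1 was listed at 29.0, 28.3 and 63.2 in the same order, and Oas1a, an enzyme that activates RNase L, at 0, 0 and 19.3.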

How the data were processed

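RNA of tumour CD8+ T cells was measured in 15 libraries made with a SMARTer ultra low input kit, as the labels' protocols state. Expression is in RPKM in the authors' 2 bulk files and in FPKM in the other 13 deposited files, per the file headers. Alignment and quantification tools named in the submitters' processing notes are RSEM, HISAT2 and Bowtie2, with no version, and the genome build is mm10. Annotation and filters are not given in the sources used here, and counts were not used here, so no count model was run. Groups were taken from titles, because some strain and genotype fields count upward between libraries.

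The files form 4 tables by the genes they list. A symbol that a table repeats was dropped. The 9 sorted libraries were fitted with limma 3.58.1 in R 4.3.3 on log2(FPKM + 1), with population and set as terms, over the 10178 genes listed in all 9 with a mean of at least 1 FPKM, Benjamini-Hochberg adjusted over all of them at a threshold of 0.05. Across 10178 genes, the differences between the wild-type sets correlated between pairs of populations with r of 0.409, 0.197 and 0.272. The wild-type sets also lie in different tables, so these r cannot show that libraries with the same number share animals. Set serves as the block because each set holds every population once and its files list the same genes. The bulk and antibody pairs were compared by ratio with 1 added to each value. Members, roles and gene lists were chosen with earlier results of these data known. Values are printed for members past the threshold, the 3 highest and 3 lowest differences in each replicated comparison and the largest ratios elsewhere, with other members named to complete a count or range. Gene positions are from GENCODE on the same build. Alternatives were no block, the wild-type libraries or the second table alone, another pseudocount, no filter, median scaling, absent genes as 0, and each library left out. The alternative without the wild type 2 set was chosen after seeing the data.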

Additional observations from a re-analysis of the deposited data

How the results depend on the processing

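The count of members past the threshold in B7S1R_SP against TIM-3_SP was 1 and became 0 with no replicate block or with the replicate block in the 6 wild-type libraries, with a pseudocount of 0.1, with no filter on low values, and in the sets wild type 1 and KO alone, an alternative chosen after seeing the data. It ranged from 0 to 1 when single libraries were left out. Over the alternatives 0 to 113 genes passed there, where 42 passed as reported, and Ifitm3 stayed higher throughout, with limma adjusted p between 0.00494 and 0.260. Over the same alternatives the limma adjusted p of Ifng was between 0.00167 and 0.377 and that of Ifitm2 between 0.00353 and 0.762, each with its direction kept. In the other replicated comparisons the count of members stayed at 0 in every alternative. The 66 alternative medians of the replicated comparisons moved by less than the spread between sets, which is wide. For the set labelled KO against wild type 2 that spread was between the populations. Single libraries moved the medians by more than 1.5 times or turned those near 0, as given beside each median above. Oas3 in TIM-3_SP against DN turned to -0.29 in the second table alone and ranged from -0.23, without DN of wild type 1, to 1.11, without DN of wild type 2, when single libraries were left out.

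Among the unreplicated pairs, the median log2 ratio of anti_PD1 to Control became 2.25 with a pseudocount of 0.1, 1.42 at a minimum of 1 FPKM and 2.30 after median scaling. That of anti_B7S1 to Control became 4.11 and 2.77 under the first and second of these, and that of combo to Control 5.17, 1.77 and 3.19. For combo against anti_B7S1 the minimum of 1 gave -0.91, and for combo against anti_PD1 it turned the median to 0.072. The bulk median stayed between 0.44 and 0.57, and 10 to 12 members were past the fold.

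Depth is unknown, and each population rests on 3 libraries from 2 tables, so a difference that missed the threshold is not shown to be absent.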
